A study of Mus musculus with 19 samples.

Results

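Collagen genes were followed in bulk RNA-Seq of the suprarenal aorta of 19 male mice. The rule for the members uses name and level: rows of the table whose symbol has the form of a collagen chain (Col, a number, a and a number) and whose value reached 10 in at least 4 of the 19 mice. This kept 35 of 42 collagen rows, among 20408 genes in the table and 14845 genes that passed the same minimum. Of these 35 genes, 9 encode chains of fibrillar collagens, 6 encode type IV collagen of basement membranes, 5 encode type VI collagen of beaded filaments, 7 encode fibril-associated (FACIT) collagens, 2 encode type VIII collagen of hexagonal networks, 2 encode multiplexins, 2 encode transmembrane collagens and 2 (Col7a1 and Col28a1) encode other collagens. The 7 rows under the minimum were Col2a1, Col6a4, Col9a1, Col9a2, Col10a1, Col24a1 and Col25a1. Just outside it, Col9a1 and Col10a1 reached a value of 10 in 2 mice each, and just inside it, Col9a3 did so in 4 mice and Col22a1 in 8 mice.

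Of the IKKβ+/+ mice, 5 received saline and 5 received Ang II. Of the IKKβ-/- mice, 4 received saline and 5 received Ang II. All were ApoE-/- mice on a C57BL6 background, fed regular chow. Their age is given as 8 weeks, which by the methods is when tamoxifen was begun. Days of tamoxifen and of rest came before the pumps, so tissue was taken at a later age. All carried SMA-CreERT2, a tamoxifen-activated Cre recombinase driven by the Acta2 promoter of smooth muscle cells, and received tamoxifen. The IKKβ-/- mice also carried the homozygous floxed Ikkb allele, so that the kinase was to be lost from vascular smooth muscle cells and retained in other cells of the wall, whereas their IKKβ+/+ littermates (labelled wild-type) lacked the floxed allele. Saline or Ang II, the vasoactive peptide angiotensin II, was infused under the skin by osmotic pump for 24 h, at 500 to 1000 ng/min/kg by the labels and at the upper of these doses by the methods. The design asked how the early aortic response to Ang II depends on IKKβ in smooth muscle cells.

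Collagens are secreted as helices of several chains and give the arterial wall its tensile strength. Fibrillar collagens of types I, III and V form the cables of the media and adventitia, and type IV collagen forms the sheet-like basement membrane around each smooth muscle cell and beneath the endothelium. The chains of Col4a1 and Col4a2 assemble together in nearly all basement membranes, whereas the chains of Col4a3, Col4a4, Col4a5 and Col4a6 build separate networks in restricted tissues, among them, for Col4a5 and Col4a6, smooth muscle. Beaded type VI filaments, multiplexins and FACIT collagens connect basement membranes and fibrils with the surrounding matrix.

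Values are normalized read counts, that is, reads of a gene divided by the size factor of the mouse. Reads recovered on the 20408 genes of the table numbered 11382573 to 19906694 per mouse. The targeted transcript, Ikbkb, averaged 700 ± 66.8 (SD, n = 10) in IKKβ+/+ and 533 ± 78.9 (SD, n = 9) in IKKβ-/- mice, 23.8% lower, with overlapping ranges (two-sided exact permutation test, p = 1.52e-04). Smooth muscle markers were abundant in every mouse, with 10 of 10 tested and a summed level of 321589 to 671223. Of the marker lists for other cells, 10 of 10 genes were tested for fibroblasts, endothelium, macrophages and nerve, 9 of 10 for adipocytes, 5 of 10 for skeletal muscle and 1 of 8 for mesothelium, the rest being under the minimum. Because this is bulk tissue, fewer cells of a type and less RNA per cell cannot be told apart. Each group held its own run of mouse numbers and no processing batch is given, so any batch and the group cannot be told apart. A gene was called when its Benjamini-Hochberg adjusted p (limma, over all 14845 genes) was under 0.1 and its fold change above 1.2.

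Collagen transcripts took 1.48% to 4.65% of the reads recovered on genes. Exon length was the union of all annotated exons of a gene, those of transcripts with retained introns among them. It was 12426 bases for Col1a2 and 6563 for Col1a1, and 8326 for Col6a2 and 4380 for Col6a1. Orders, shares and ratios between genes depend on these lengths. Levels of different genes were compared only per kb of exon. On that scale the fibril-forming chains led, with medians over the 19 mice of 10728 normalized counts per kb for Col3a1 (type III), 9025 for Col1a1 and 6857 for Col1a2 (both type I). They were followed by Col18a1, the multiplexin whose C-terminal fragment is endostatin, at 4165 per kb, and by the basement membrane chains Col4a1 at 4087 and Col4a2 at 3161 per kb. The ranges over mice of these 6 genes overlapped between neighbours in the order. Type VI chains Col6a1 and Col6a2 followed at 2490.4 and 1463 per kb, and the type V chains Col5a2 and Col5a1, which start and regulate fibrils, at 1223 and 1143 per kb. Within type IV, Col4a5 reached 1084 per kb, Col4a6 304, Col4a4 92.4 and Col4a3 71.4. The lowest members, Col22a1, Col7a1 and Col9a3, had medians under 2 per kb.

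**Figure D1:**
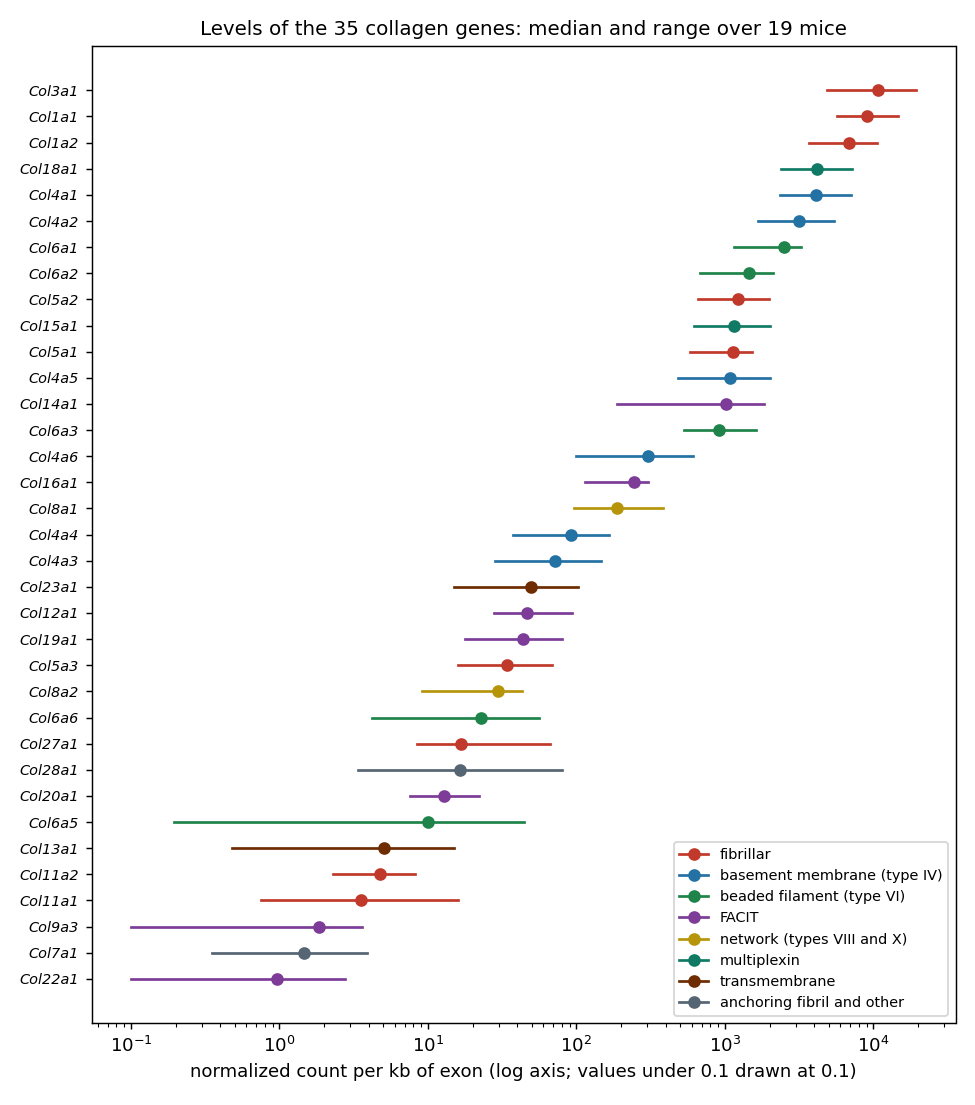
Normalized count per kb of exon (log axis) of the 35 collagen genes, with the median as a point and the range over 19 mice as a line, coloured by class. Col3a1, Col1a1 and Col1a2 lead at 10728, 9025 and 6857 per kb, and Col22a1 is lowest at 0.957 per kb.

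Per kb, the 9 fibrillar genes held 59.1% to 65.7% of the collagen signal in saline-infused IKKβ+/+ mice and 45.6% to 57.9% in Ang II-treated IKKβ+/+ mice, ranges that did not overlap. In IKKβ-/- mice this share was 61.3% to 64.98% with saline and 49.5% to 65.2% with Ang II, which overlapped. The share of Col4a1 and Col4a2 was 10.6% to 12.2% with saline and 14.6% to 22.0% with Ang II in IKKβ+/+ mice. That of the other 4 type IV chains was 3.42% to 4.68% with saline and 2.01% to 2.90% with Ang II. In IKKβ-/- mice the share of Col4a1 and Col4a2 overlapped, at 10.6% to 13.5% with saline and 10.9% to 24.4% with Ang II, whereas that of the other 4 was 3.35% to 4.48% and 1.96% to 3.17%, without overlap. The smaller share of these 4 chains after Ang II was thus seen in both genotypes. These shares depend on each other and are given as a description, without a test.

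Type IV genes lie in head-to-head pairs, with both genes of a pair read outward from a common region (GRCm38, the coordinates of the deposited table and of GENCODE M21). Col4a1 (chr8:11198423-11312826, minus strand) and Col4a2 (chr8:11312805-11449287, plus strand) start 21 bases apart and overlap there. Col4a4 (chr1:82448423-82586849, minus strand) and Col4a3 (chr1:82586921-82722059, plus strand) start 72 bases apart. Col4a6 (chrX:141165403-141474076, minus strand) and Col4a5 (chrX:141475385-141689234, plus strand) start 1309 bases apart. The windows around these starts are shown because the log2 fold change with Ang II had 1 sign within each pair and not the same sign in all pairs. Each window runs from 250 bases before to 50 bases after the start (RefSeq, GRCm38.p6), 5′ to 3′ on the strand of its gene. That of Col4a2 shares 78 bases with that of Col4a1 and is not shown. Capitals mark 5 motifs, searched on either strand. The GC box is GGGCGG. The CCAAT box is searched by those letters and the TATA box as TATAA. The CArG box is searched as CCWWWWWWGG, where W is A or T. The NF-κB site is searched by the loose pattern GGGNNNNYCC, where N is any base and Y is C or T. A match to it is not evidence of a working site.
Col4a1, chr8:11312777-11313076, minus strand: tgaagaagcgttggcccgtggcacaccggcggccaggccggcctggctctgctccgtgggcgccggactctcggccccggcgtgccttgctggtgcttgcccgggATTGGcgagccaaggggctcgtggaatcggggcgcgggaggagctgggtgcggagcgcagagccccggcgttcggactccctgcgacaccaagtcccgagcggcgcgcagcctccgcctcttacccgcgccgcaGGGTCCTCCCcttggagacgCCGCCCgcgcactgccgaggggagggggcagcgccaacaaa
Col4a4, chr1:82586800-82587099, minus strand: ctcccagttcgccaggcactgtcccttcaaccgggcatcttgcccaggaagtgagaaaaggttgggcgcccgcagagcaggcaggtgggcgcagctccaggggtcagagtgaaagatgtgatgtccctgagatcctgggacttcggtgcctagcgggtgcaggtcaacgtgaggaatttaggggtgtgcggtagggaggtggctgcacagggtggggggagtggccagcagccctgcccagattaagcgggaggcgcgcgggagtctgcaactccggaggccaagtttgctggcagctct
Col4a5, chrX:141475169-141475468, plus strand: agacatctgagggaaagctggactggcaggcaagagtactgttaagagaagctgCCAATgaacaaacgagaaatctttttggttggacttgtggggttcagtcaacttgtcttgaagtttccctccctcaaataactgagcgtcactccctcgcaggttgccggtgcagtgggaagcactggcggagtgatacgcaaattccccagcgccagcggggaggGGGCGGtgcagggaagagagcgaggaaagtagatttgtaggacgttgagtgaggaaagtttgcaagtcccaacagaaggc
Col4a6, chrX:141474027-141474326, minus strand: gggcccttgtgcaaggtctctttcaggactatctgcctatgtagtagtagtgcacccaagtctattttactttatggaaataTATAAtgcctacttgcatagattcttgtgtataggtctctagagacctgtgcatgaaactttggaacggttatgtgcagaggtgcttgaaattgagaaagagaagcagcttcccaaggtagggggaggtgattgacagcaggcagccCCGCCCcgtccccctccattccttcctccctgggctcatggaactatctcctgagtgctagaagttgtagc

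The Col4a1 window was 74.0% G and C and held 1 GC box, 1 CCAAT box and 1 NF-κB match. The Col4a4 window, at 63.3% G and C, held none of the 5 motifs, the Col4a5 window (52.7%) held 1 GC box and 1 CCAAT box, and the Col4a6 window (48.3%) held 1 GC box and 1 TATA box. Windows, 30 in all, were at hand for 28 of the 35 collagen genes, and a gene was counted if any of its windows matched. Of these 28, 19 held a GC box (35.7% of all 32851 windows did), 9 a CCAAT box (37.4%), 4 a TATA box (24.9%), 13 an NF-κB match (27.2%) and 0 a CArG box (1.63%). The counts are per gene and the percentages per window, so they are not strictly alike. These are matches of letters only, and motifs of different names can overlap within a window.

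The first comparison asked what 24 h of Ang II did to collagen transcripts in IKKβ+/+ mice. No collagen gene was called higher, against 4.33% of all genes, and 6 of 35 were called lower, also against 4.33% of all genes. The 6 were Col4a3, Col4a4, Col4a5 and Col4a6 of type IV, Col6a6 of type VI and Col23a1, a transmembrane collagen. The groups did not overlap for 9 collagen genes, all lower with Ang II, against 4.47% of all genes lower and 3.95% higher. The median log2 fold change was −0.15 over the 35 collagen genes, −0.33 over the 9 fibrillar, −0.94 over the 6 type IV and −0.02 over the 26 non-fibrillar genes, beside 0.01 over all genes tested.

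Col4a4 was at 1365, 1359, 1607, 1401 and 1752 in the saline-infused and at 434, 873, 1004, 523 and 767 in the Ang II-treated mice. Every treated mouse was below every saline-infused mouse. The log2 fold change was −1.12 ± 0.21 (SE, adjusted p = 0.0078), a ratio of 0.461.

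Its partner Col4a3 was at 1101, 1203, 1395, 1278 and 1469.7 with saline and at 295, 857, 804, 383 and 705 with Ang II. The groups were again apart, and mice X2350 and X2358 were lowest for both genes. The log2 fold change was −1.20 ± 0.27 (SE, adjusted p = 0.0171). Of its exon bases, 5.65% are shared with C430014B12Rik on the opposite strand. The mean Col4a3 level per kb was 0.918 ± 0.0433 (SD, n = 5) of that of Col4a4 with saline and 0.876 ± 0.134 (SD, n = 5) with Ang II.

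Col4a5, the most abundant of these 4 chains, was at 11664, 10126, 13442, 10279 and 8801 with saline and at 4808, 7429.9, 6294, 5945 and 5274 with Ang II, without overlap (log2 fold change −0.87 ± 0.18, SE, adjusted p = 0.0108). Col4a6 was at 3883, 3755, 4890.2, 3748 and 3693 with saline and at 1835, 2335, 2531, 1540.2 and 1723 with Ang II, also without overlap (log2 fold change −1.02 ± 0.24, SE, adjusted p = 0.0204). Within each mouse, Col4a6 stood at 0.206 to 0.357 of Col4a5 per kb over all 19 mice.

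Col4a1 went the other way without being called. It was at 36718, 30502, 35019, 23678 and 25475 with saline and at 46849, 41130.5, 31415, 53106 and 42779 with Ang II. All but 1 of the treated mice exceeded all saline-infused mice, and the log2 fold change was 0.51 ± 0.20 (SE, adjusted p = 0.146). Col4a2 had a log2 fold change of 0.51 ± 0.21 (SE, adjusted p = 0.165), with 16875 to 25468 in the saline-infused and 20920.2 to 35679 in the treated mice. DESeq2 on the recovered reads called both higher (adjusted p = 0.0555 and 0.0811).

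**Figure D2:**
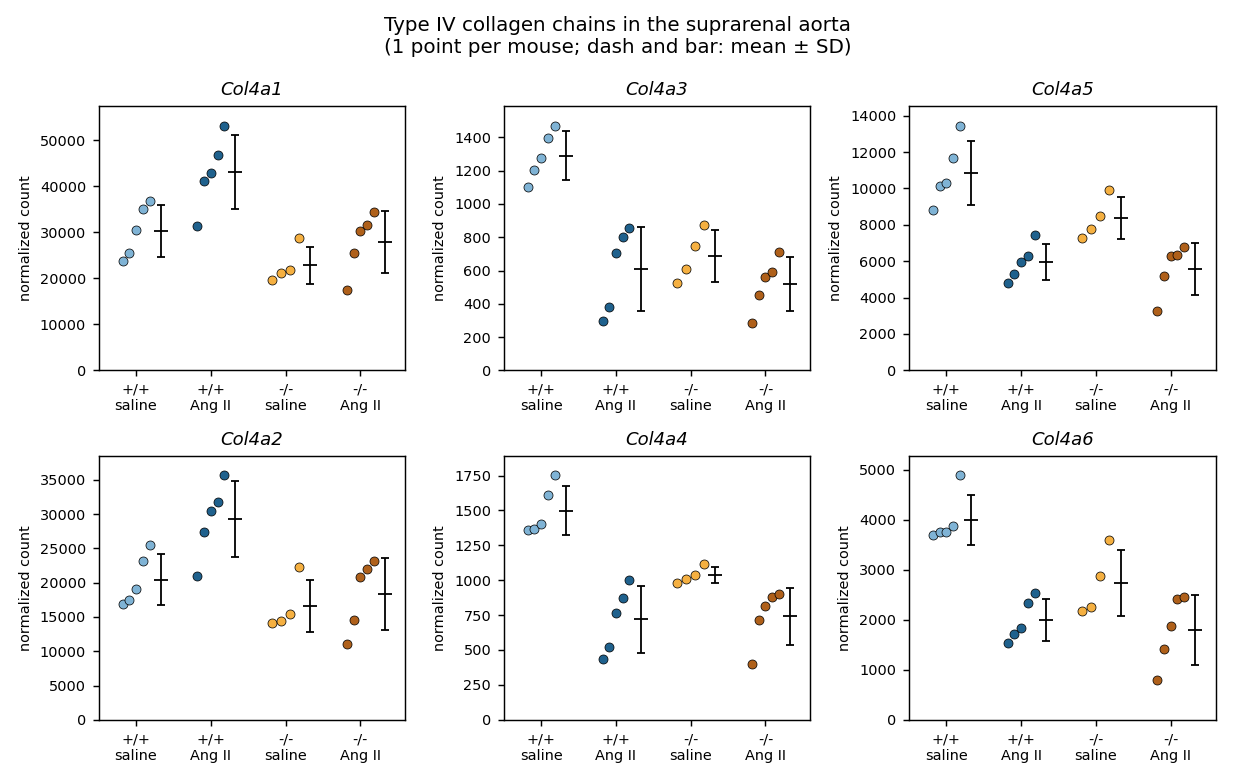
Normalized counts of the 6 type IV collagen genes in each mouse (points) by group, with the mean ± SD beside them (axes from 0). In IKKβ+/+ mice Col4a3, Col4a4, Col4a5 and Col4a6 are lower with Ang II without overlap (Col4a4 at 1359 to 1752 against 434 to 1004), while Col4a1 and Col4a2 overlap and lie mostly higher.

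Because a ratio within a mouse does not depend on how its library was scaled, Col4a5 was also set against Col4a1 per kb. The ratio was 0.353, 0.369, 0.426, 0.482 and 0.384 in saline-infused and 0.114, 0.201, 0.223, 0.124 and 0.137 in Ang II-treated IKKβ+/+ mice. In IKKβ-/- mice it was 0.519, 0.370, 0.441 and 0.329 with saline and 0.105, 0.231, 0.331, 0.297 and 0.222 with Ang II. The 2 treatments were apart in IKKβ+/+ mice and met only at 1 mouse of each group in IKKβ-/- mice. This ratio was chosen after its values were seen and was not tested.

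Cell markers moved with the same contrast. Of 10 smooth muscle markers, 4 were called higher (Tagln, Cnn1, Des and Actg2) and 9 lay above 0, with a summed level of 346853 to 466050 with saline and 480243 to 671223 with Ang II. Of 10 endothelial markers, 2 (Tek and Cldn5) were called lower and 2 lay above 0, with a summed level of 22701 to 38221 with saline and 12463 to 24991 with Ang II. Of 10 fibroblast markers, 1 (Lum) was called lower and 0 lay above 0, with a summed level of 116294 to 146830 with saline and 50205.3 to 149539 with Ang II. With the fibroblast or the endothelial score of each mouse as a covariate, Col4a3, Col4a4, Col4a5 and Col4a6 all stayed called. Those fits called 3.33% and 5.01% of all genes in either direction. With the smooth muscle score as a covariate their log2 fold changes were −0.94, −0.76, −0.85 and −0.998, in that order, and none was called (adjusted p = 0.103 to 0.208), in a fit that called 0.701% of all genes in either direction. Under the other 33 of 34 alternative settings, those that left out each mouse in turn among them, all 4 were called. Many of these settings could change little here. Omitting IKKβ-/- mice, the filter or the other groups, or changing the thresholds, kept the main fold changes (−1.20 to −0.87). When a mouse of the 2 groups compared was left out, adjusted p (limma) was at most 0.0724.

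Outside type IV, Col6a6, a low type VI chain, showed the largest absolute fold change of the 35 collagen genes in this comparison. It was at 492, 337, 516, 394 and 481 with saline and at 72.8, 88.6, 231, 55.4 and 144 with Ang II, without overlap (log2 fold change −2.07 ± 0.41, SE, adjusted p = 0.00955). The abundant type VI chains did not follow it, with log2 fold changes of 0.06 ± 0.18 for Col6a1 and 0.14 ± 0.19 for Col6a2 (SE, adjusted p = 0.894 and 0.725). Like the type IV chains, Col6a6 was not called with the smooth muscle score as a covariate (adjusted p = 0.152). Col23a1 was at 326, 514, 592, 559 and 569.9 with saline and at 178, 282, 203, 157 and 379 with Ang II. The groups overlapped at 1 mouse of each, and the log2 fold change was −1.14 ± 0.31 (SE, adjusted p = 0.0443). Its call was lost with the fibroblast (adjusted p = 0.119), endothelial (0.161) or smooth muscle score (0.266) as a covariate and without X2350, X2358 or X2378 (adjusted p up to 0.132).

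None of the 9 fibrillar genes was called in IKKβ+/+ mice, and 7 of 9 lay below 0. Col3a1 was at 190781, 148504, 171173, 112140.0 and 132898 with saline and at 68219.6, 95321, 101507, 97658 and 105308 with Ang II. The groups did not overlap, and the log2 fold change was −0.68 ± 0.26 (SE, adjusted p = 0.142). Col1a2 was at 86159.5 to 130722 with saline and at 66457 to 86116 with Ang II, just apart (log2 fold change −0.53 ± 0.21, SE, adjusted p = 0.165). Col1a1 overlapped, with 51590.5 to 96077 against 48952 to 64878 (log2 fold change −0.33 ± 0.21, SE, adjusted p = 0.384). edgeR on the recovered reads called Col3a1 and Col1a2 lower (adjusted p = 0.0738 and 0.0807), as did DESeq2 (0.0177 and 0.0194). The type V chains differed among themselves, with log2 fold changes of 0.10 ± 0.18 for Col5a1, 0.31 ± 0.15 for Col5a2 and −0.80 ± 0.29 for Col5a3 (SE, adjusted p = 0.804, 0.237 and 0.118). Of the 10 fibroblast markers given above, 0 lay above 0 in this contrast, but their summed levels overlapped between the groups. Treated mice X2356 and X2359 were at 149539 and 135309, beside 116294 to 146830 with saline. Col3a1 in these 2 mice (101507 and 105308) was below every saline-infused mouse. Beyond the fit with the fibroblast score as a covariate, the part of the fibroblast markers in the fibrillar values was not tested.

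Set against the leading fibrillar chain within each mouse, Col4a1 per Col3a1 per kb was 0.253, 0.270, 0.269, 0.278 and 0.252 in the saline-infused and 0.903, 0.567, 0.407, 0.715 and 0.534 in the Ang II-treated IKKβ+/+ mice. It was 0.225, 0.280, 0.327 and 0.300 in the saline-infused and 0.945, 0.546, 0.252, 0.282 and 0.387 in the Ang II-treated IKKβ-/- mice. The saline values of both genotypes were tightly grouped, the treated IKKβ+/+ mice all lay above them, and the treated IKKβ-/- mice ranged from within them to above. This ratio was also chosen after its values were seen and was not tested.

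**Figure D3:**
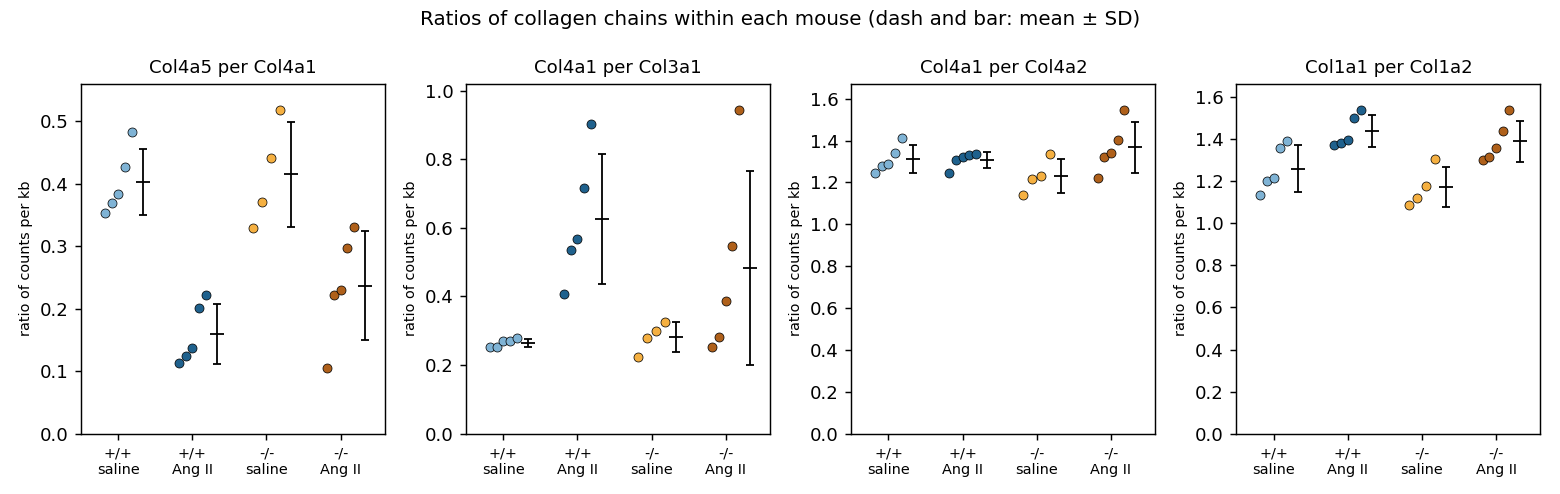
Ratios of counts per kb of exon within each mouse (points) by group, with the mean ± SD beside them (axes from 0). Col4a5 per Col4a1 was 0.353 to 0.482 with saline and 0.114 to 0.223 with Ang II in IKKβ+/+ mice, and Col4a1 per Col3a1 was 0.252 to 0.278 and 0.407 to 0.903, while Col4a1 per Col4a2 and Col1a1 per Col1a2 stayed between 1.09 and 1.55 in all 19 mice.

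Of the remaining members, Col8a1, which encodes a chain of the type VIII network made by activated smooth muscle and endothelial cells, was at 1542, 1119, 1117, 1167 and 1073 with saline and at 1479, 2817, 1138, 3005 and 2476 with Ang II. The groups overlapped, with 3 treated mice well above the rest (log2 fold change 0.77 ± 0.29, SE, adjusted p = 0.123). edgeR and DESeq2 called it higher (adjusted p = 0.0828 and 0.0305). The multiplexins were not called, at 0.05 ± 0.19 for Col15a1 and 0.37 ± 0.19 for Col18a1 (log2 fold change ± SE, adjusted p = 0.915 and 0.281). Col14a1, a FACIT collagen, and Col22a1 were apart between the groups but not called (log2 fold change −0.78 ± 0.41 and −1.35 ± 0.70, SE, adjusted p = 0.298 and 0.288), the latter at 1.99 to 8.78 in treated mice.

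**Figure D4:**
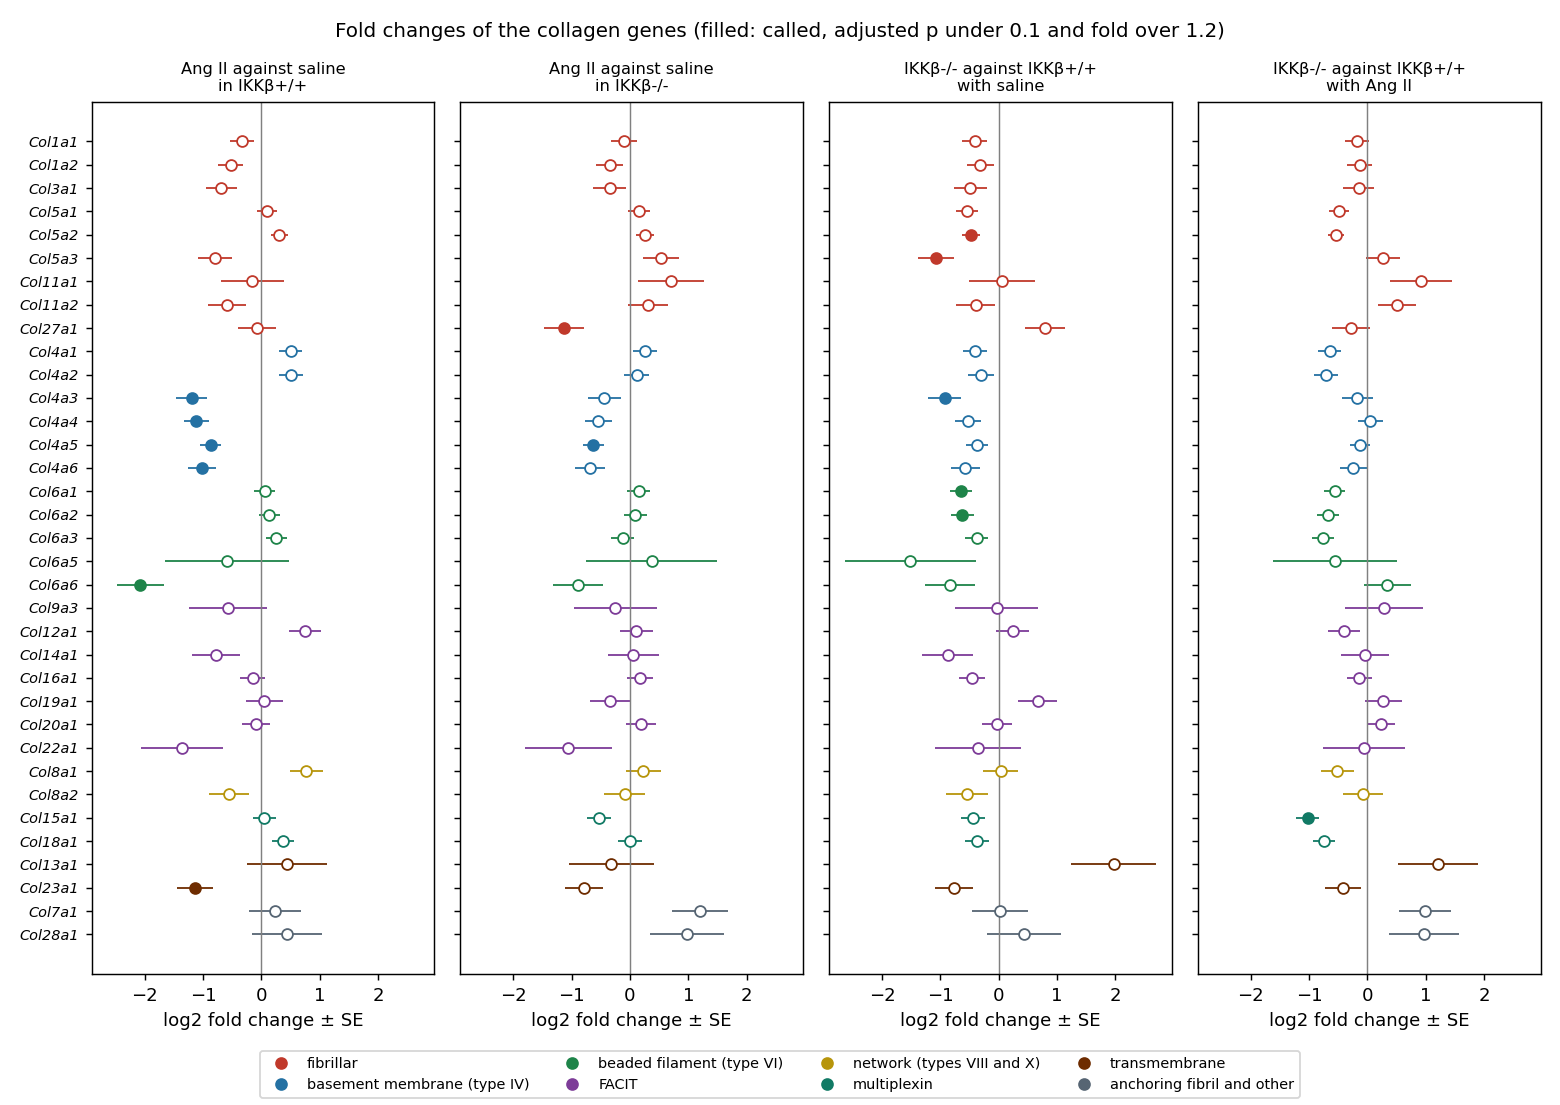
Log2 fold change ± SE (limma) of the 35 collagen genes in 4 comparisons, ordered and coloured by class, with filled points for called genes. In IKKβ+/+ mice with Ang II the filled points are Col4a3, Col4a4, Col4a5, Col4a6, Col6a6 and Col23a1, between −2.07 and −0.87, and no point above 0 is filled in any panel.

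In IKKβ-/- mice Ang II gave 0 collagen genes called higher, against 2.59% of all genes, and 2 of 35 called lower, against 2.69%. Col4a5 was at 9906, 7281, 7794 and 8490.4 with saline and at 3261, 6270.2, 5186, 6786 and 6314 with Ang II. The groups were apart, and the log2 fold change was −0.63 ± 0.19 (SE, adjusted p = 0.0762). Col27a1, a fibrillar collagen best known from cartilage, was at 249.97, 356, 859 and 343 with saline and at 243, 179, 207, 111 and 206 with Ang II (log2 fold change −1.13 ± 0.35, SE, adjusted p = 0.084). Its groups were apart by a narrow margin, and 1 saline-infused mouse, X2406, was far above the rest. The call of Col4a5 was lost when X2380, X2384, X2401, X2406 or X2409 was left out (adjusted p up to 0.199), and that of Col27a1 without X2384, X2385, X2386, X2403 or X2406 (adjusted p up to 0.273). Without X2385 and X2406, the libraries with the largest share of mitochondrial mt-Co1 reads, neither gene was called (adjusted p = 0.116 for Col4a5 and 0.450 for Col27a1).

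Groups did not overlap for 3 collagen genes, all lower, against 2.88% of all genes lower. The third was Col4a4, at 1115, 981, 1039.5 and 1012 with saline and at 398, 812, 716, 877 and 899.7 with Ang II (log2 fold change −0.54 ± 0.23, SE, adjusted p = 0.217). Col4a3 and Col4a6 had log2 fold changes of −0.44 ± 0.28 and −0.69 ± 0.25 (SE, adjusted p = 0.440 and 0.153), and Col4a1 and Col4a2 of 0.26 ± 0.21 and 0.11 ± 0.22 (adjusted p = 0.563 and 0.843). All 6 type IV genes thus had the sign seen in IKKβ+/+ mice, with a smaller size in each. Fibrillar chains Col1a1, Col1a2 and Col3a1 were at −0.10 ± 0.22, −0.35 ± 0.23 and −0.35 ± 0.28 (SE, adjusted p = 0.857, 0.454 and 0.564). The medians were 0.00 over the 35 collagen genes, 0.16 over the fibrillar and −0.49 over the type IV genes, beside −0.00 over all genes.

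Adipocyte markers moved strongly in this contrast, 8 of 9 being called higher, with a median log2 fold change of 3.997 and a summed level of 4724 to 6810 with saline and 7604 to 33518 with Ang II. Of 10 nerve markers 9 lay above 0 (median 0.80) and Sox10 was called higher. Of 10 endothelial markers only 2 lay above 0 (median −0.30), although Kdr was called higher (log2 fold change 1.79). Of 10 macrophage markers 9 lay above 0 (median 0.17), and Lyve1 was called higher (1.07). With the adipocyte score as a covariate neither collagen gene was called (adjusted p = 0.529 for Col4a5 and 0.572 for Col27a1), and 6 of all 14845 genes were. Of 10 fibroblast markers 7 lay above 0 (median log2 fold change 0.10, 0 called). With the fibroblast score as a covariate 5 collagen genes were called lower, namely Col4a4, Col4a5, Col4a6, Col6a6 and Col27a1, against 4.19% of all genes lower in that fit. With the smooth muscle score 3 were called lower (Col4a4, Col4a5 and Col27a1) and 3 higher (Col4a1, Col4a2 and Col5a2), against 3.50% of all genes lower and 3.48% higher. Mouse X2380 had the lowest fibroblast score of all 19 mice, and without X2350 and X2380 both calls stayed (adjusted p = 0.0862 for Col4a5 and 0.0425 for Col27a1).

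Whether the response to Ang II differed between genotypes was tested directly as the difference of the 2 log2 fold changes. No collagen gene was called in either direction by limma, against 0.00% of all genes higher and 0.00% lower, so this fit called no gene at all. At an unadjusted p under 0.05 there were 2 of 35 collagen genes and 1654 of 14845 genes. edgeR called 0 collagen genes and 3 genes in all, and DESeq2 called 1 and 279. The collagen gene called by DESeq2 was Col5a3, a regulatory type V chain (log2 difference 1.36, adjusted p = 0.0831), for which limma gave 1.34 ± 0.42 (SE, adjusted p = 0.288). It was at 468, 354, 398, 218 and 426 in saline-infused and at 144, 204, 284, 151 and 303 in Ang II-treated IKKβ+/+ mice, against 233, 109, 171 and 200.3 with saline and 171, 156, 348, 250.5 and 414 with Ang II in IKKβ-/- mice. Levels were thus lower with Ang II in one genotype and higher in the other, with overlap in both. For the type IV chains the differences were 0.75 ± 0.39 for Col4a3, 0.58 ± 0.31 for Col4a4, 0.24 ± 0.26 for Col4a5, 0.33 ± 0.35 for Col4a6, −0.25 ± 0.29 for Col4a1 and −0.40 ± 0.30 for Col4a2 (log2 ± SE, adjusted p from 0.474 to 0.757). A difference of response was not shown for these chains, and with these standard errors differences of their own size could not be told from 0.

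The third comparison set IKKβ-/- against IKKβ+/+ mice with saline. No collagen gene was called higher, against 3.40% of all genes, and 5 of 35 were called lower, against 2.07%. Of the 35 genes, 27 lay below 0, with a median log2 fold change of −0.40 beside −0.02 over all genes, and the groups did not overlap for 5 genes, all lower, against 4.08% of all genes lower. These were Col4a3, Col4a4, Col4a6, Col5a2 and Col14a1. The 5 genes of type VI and the 6 of type IV all lay below 0, with medians of −0.65 and −0.46. These saline groups are also the reference of the Ang II comparisons, so the values are not independent of those above.

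The called genes were Col5a3 (log2 fold change −1.07 ± 0.31, SE, adjusted p = 0.075), Col4a3 (−0.93 ± 0.28, adjusted p = 0.0888), Col6a1 (−0.65 ± 0.19, adjusted p = 0.0812), Col6a2 (−0.62 ± 0.20, adjusted p = 0.0967) and Col5a2 (−0.48 ± 0.15, adjusted p = 0.099). Col4a3 was at 747, 607, 524 and 873 in IKKβ-/- mice, all below the 1101 to 1469.7 of IKKβ+/+ mice. Col5a2 was at 9844, 8729, 6304 and 10463 in IKKβ-/- mice and at 11946, 12274, 14215, 11730.3 and 10678 in IKKβ+/+ mice, apart by a narrow margin.

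The type VI partners moved together and both overlapped with the control group. Col6a1 was at 8687, 6242, 5066 and 11578 in IKKβ-/- mice against 10604 to 13484 in IKKβ+/+ mice. Col6a2 was at 9116, 7266, 5664 and 12723 against 11046 to 14927. In both genes mouse X2409 lay within the IKKβ+/+ range and the other 3 below it. The share of mt-Co1 reads was 4.78%, 6.28%, 11.7% and 2.83% in X2401, X2403, X2406 and X2409. This order is the reverse of that of both genes. In the saline-infused IKKβ+/+ mice the share was 1.82% to 2.85%. Its part in these values was not tested. The major fibrillar chains were not called, at −0.41 ± 0.22 for Col1a1, −0.31 ± 0.23 for Col1a2, −0.49 ± 0.28 for Col3a1 and −0.55 ± 0.19 for Col5a1 (SE, adjusted p = 0.307, 0.470, 0.351 and 0.118).

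Other values moved with this contrast. Of 9 adipocyte markers 1 lay above 0 (median log2 fold change −2.23, 0 called), with a summed level of 4724 to 6810 in IKKβ-/- and 4733 to 14983 in IKKβ+/+ mice. Of 10 endothelial markers 2 lay above 0 (median −0.61, 0 called), and of 10 smooth muscle markers 9 did (median 0.29), with Actg2 called higher (adjusted p = 0.0883). Of 10 fibroblast markers 1 lay above 0 (median −0.61, 0 called), with a summed level of 76458 to 116279 in IKKβ-/- and 116294 to 146830 in IKKβ+/+ mice. Of 10 macrophage markers, 2 (Cd68 and Adgre1) were called lower and 0 lay above 0, with summed levels of 5387 to 7398 against 8274 to 11112. With the fibroblast score or the adipocyte score as a covariate 0 collagen genes were called, beside 1.27% and 0.0404% of all genes. With the smooth muscle score 9 were called lower, beside 5.49% of all genes lower. The count was also 0 without X2385 and X2406 (0.128% of all genes called) and 0 at an adjusted p under 0.05 (0.916%). The main fit called 5.47% of all genes. The count was 0 without X2372 (2.86%), X2373 (0.754%), X2378 (3.68%), X2403 (0.445%) or X2406 (0.162%) alone. It was 1 without X2376 (2.07%) or X2401 (2.41%) and 3 without X2352 (4.2%), X2359 (4.73%), X2384 (5.21%), X2385 (5.05%) or X2386 (5.49%). Without X2370 the single call was Col13a1, a transmembrane collagen, which was higher (log2 fold change 2.63, adjusted p = 0.0875). That fit called 1.25% of all genes.

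With Ang II, 0 collagen genes were called higher in IKKβ-/- than in IKKβ+/+ mice, against 0.0202% of all genes, and 1 of 35 was called lower, against 0.108%. This was Col15a1, a multiplexin at the border between basement membrane and fibrils. It was at 10234, 10605, 7494, 12819.9 and 6552 in IKKβ+/+ and at 3911, 5112, 3956, 4334 and 5812 in IKKβ-/- mice. The groups were apart, and the log2 fold change was −1.02 ± 0.19 (SE, adjusted p = 0.0803), a ratio of 0.493. The call was lost when 1 of 9 mice was left out (X2350, X2352, X2358, X2370, X2372, X2376, X2384, X2385 or X2401), with adjusted p up to 0.229, and with the smooth muscle score as a covariate (adjusted p = 0.308). Smooth muscle markers lay at a median of −0.29 (log2, IKKβ-/- against IKKβ+/+), with 0 of 10 above 0, 0 called, and a summed level of 321589 to 574047 against 480243 to 671223. Nerve markers were above 0 in 10 of 10 (median log2 fold change 0.73) and adipocyte markers in 9 of 9 (median 1.04), with 0 called in either list. With the adipocyte score as a covariate Col15a1 was not called (adjusted p = 0.215). The share of mt-Co1 reads was 2.74% to 3.91% in these IKKβ+/+ and 2.36% to 10.3% in these IKKβ-/- mice. All treated IKKβ+/+ mice but X2350 lay above the 1.82% to 2.85% of the saline-infused ones. The part of this share in either comparison was not tested.

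Groups did not overlap for 4 collagen genes, all lower in IKKβ-/- mice, against 0.882% of all genes lower. Besides Col15a1 these were Col18a1, the other multiplexin, at 16757 to 29244 against 32962 to 50532 (log2 fold change −0.74 ± 0.19, SE, adjusted p = 0.157), and Col6a1 and Col6a2 (−0.56 ± 0.18 and −0.67 ± 0.19, adjusted p = 0.212 and 0.168). Col4a1 and Col4a2 were at −0.65 ± 0.20 and −0.71 ± 0.21, and Col5a1, Col5a2 and Col8a1 at −0.48 ± 0.18, −0.54 ± 0.15 and −0.51 ± 0.29 (SE, adjusted p from 0.163 to 0.418). The major fibrillar chains were close between genotypes, at −0.18 ± 0.21 for Col1a1, −0.13 ± 0.21 for Col1a2 and −0.15 ± 0.26 for Col3a1 (SE, adjusted p from 0.704 to 0.818). DESeq2 called 8 collagen genes lower in this comparison, namely Col15a1, Col18a1, Col4a1, Col4a2, Col5a2, Col6a1, Col6a2 and Col6a3, against 2.43% of all genes lower by that tool.

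**Figure D5:**
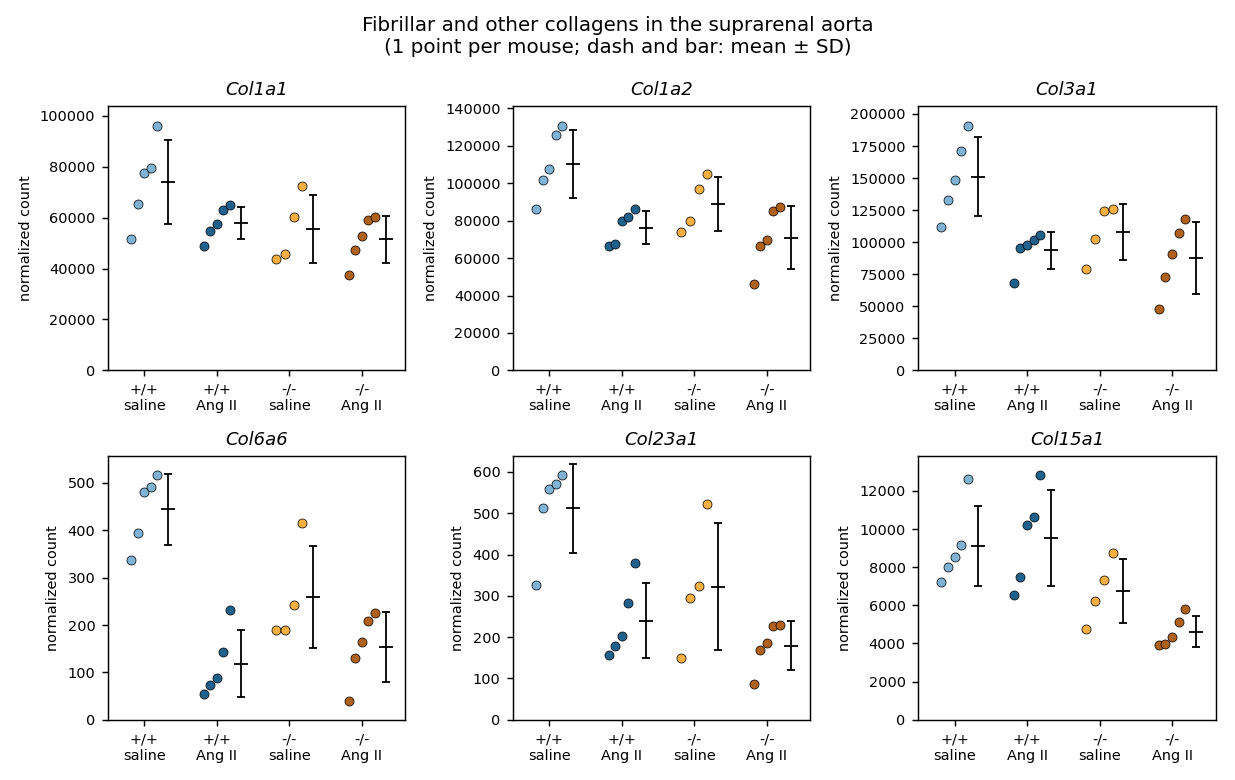
Normalized counts of 6 collagen genes outside type IV in each mouse (points) by group, with the mean ± SD beside them (axes from 0). Col6a6 is lower with Ang II in IKKβ+/+ mice (337 to 516 against 55.4 to 231), Col3a1 is apart but not called, and Col15a1 is lower in IKKβ-/- than in IKKβ+/+ mice with Ang II (3911 to 5812 against 6552 to 12819.9).

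The proportions of partner chains were also compared within each mouse. Per kb, Col4a1 was 1.14 to 1.55 times Col4a2 and Col1a1 was 1.09 to 1.54 times Col1a2 over all 19 mice. Col4a3 was 0.537 to 1.05 times Col4a4, and Col4a6 was 0.206 to 0.357 times Col4a5. Taken as highest over lowest value, the first 2 spans were the narrower ones. The values per kb depend on the exon lengths used. Before division by length, the median over the 19 mice was 59229.5 for Col1a1 and 85202 for Col1a2. Differences of the log2 ratio were tested for Col1a1 to Col1a2, Col4a1 to Col4a2, Col5a1 to Col5a2 and Col6a1 to Col6a2 in the 4 comparisons, 16 two-sided exact permutation tests in all. None passed after Benjamini-Hochberg adjustment (lowest adjusted p of the exact permutation tests 0.254), which with 4 or 5 mice a group does not show that the proportions were equal. The lowest unadjusted value was for Col1a1 to Col1a2 with Ang II in IKKβ+/+ mice, a difference of 0.19 (exact permutation p = 0.0238), and the same ratio differed by 0.25 in IKKβ-/- mice (exact permutation p = 0.0317), with overlap in both. For Col4a1 to Col4a2 in IKKβ+/+ mice the difference was −0.01 (exact permutation p = 0.889).

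Genes that modify, process, cross-link, degrade and sense collagen were read from 7 lists. With Ang II in IKKβ+/+ mice, 3 of 16 genes for hydroxylation and glycosylation were called higher and 1 lower, beside 4.33% of all genes in each direction. These were the lysyl hydroxylases Plod1 and Plod2 and the chaperone Fkbp10 (log2 fold change 0.30, 0.48 and 0.38, adjusted p = 0.0824, 0.0621 and 0.0526), and P3h3, a partner of lysine hydroxylation in the endoplasmic reticulum (−0.61 ± 0.10, SE, adjusted p = 0.00229). P3h3 was at 2188 to 2597 with saline and at 1432 to 1818 with Ang II. Of 5 cross-linking oxidases, all lay above 0 and 2 were called higher, Loxl3 at 1099 to 1205 against 1392 to 1735 (log2 fold change 0.47, adjusted p = 0.0102) and Loxl4 at 99.2 to 171 against 192 to 470.1 (2.01-fold, adjusted p = 0.033).

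Of 5 tested genes for degradation and uptake 1 was called lower, the collagen-cutting protease Ctsk at 1203 to 1458 against 552 to 1057 (log2 fold change −0.85, adjusted p = 0.095). The shared integrin subunit Itgb1 was the 1 of 9 receptor genes called, higher by 0.64 (adjusted p = 0.063). The profibrotic cytokine Il11 was the 1 of 5 ligands called, at 2.64 to 10.6 with saline and 12.8 to 922 with Ang II (log2 fold change 3.35 ± 0.81, SE, adjusted p = 0.0263), the top value coming from 1 mouse against a group median of 60.3. None of 7 genes for folding and export and none of 7 tested genes for propeptide processing was called, with medians of 0.06 and −0.31.

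In IKKβ-/- mice Ang II gave 2 calls higher and 2 lower among the 16 hydroxylation and glycosylation genes, namely Plod1 and Plod3 (log2 fold change 0.35 and 0.39, adjusted p = 0.0759 and 0.075) and P3h3 and Crtap (−0.43 and −0.29, adjusted p = 0.0277 and 0.0966), and none in the other 6 lists, beside 2.59% of all genes higher and 2.69% lower. Between genotypes with saline, Plod3, P3h3, the collagen transcription factor Creb3l1 and the gelatinase Mmp2 were lower in IKKβ-/- mice (log2 fold change −0.39, −0.33, −0.54 and −0.91, adjusted p = 0.079, 0.0973, 0.073 and 0.0901). Mmp2 was at 1423 to 3299 in IKKβ-/- and 3779 to 4775 in IKKβ+/+ mice. Of all genes, 2.07% were called lower in that comparison. With Ang II no gene of the 7 lists was called between genotypes, beside only 0.0202% of all genes higher and 0.108% lower.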

How the data were processed

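Poly(A) RNA of the suprarenal aorta of 19 mice was sequenced as single reads. Per the labels and the study's methods, the authors used Trimmomatic 0.35 for trimming, STAR 2.7.1a for alignment of these stranded libraries to GRCm38 with GENCODE genes and for gene counts, and normalized gene counts with DESeq2 1.30.1. The deposited signal values are counts divided by size factors, in 1 table of 20408 genes. All values (100%) were whole multiples of the value of 1 read within 0.02 reads, so reads were recovered for edgeR 4.0.16 and DESeq2 1.42.0 as alternatives. Each sample is 1 mouse, and no pair of libraries within a group agreed within sampling noise.

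Genes with a value of at least 10 in at least 4 mice were tested with limma 3.58.1 (R 4.3.3, 1 mean per group, trend) on log2(value + 1), a scale that understates changes of low genes. The design fixed a test for normalized values. The thresholds of the study were used, and the steps were tested on simulated data. Levels per kb used the union of exons in GENCODE M21, in which all 35 collagen genes had the coordinates of the table. Cell scores were mean log2 values of each marker list. Ratios were tested by exact permutation (SciPy 1.17.1). Named genes were all called collagens, up to 10 per direction, and Col1a1, Col1a2, Col3a1, Col5a1, Col5a2, Col4a1, Col4a2, Col6a1, Col6a2, Col8a1, Col15a1 and Col18a1, with up to 6 called genes of the 7 lists per comparison. Others that are named were chosen after their values were seen. The members and lists were chosen with earlier results of these data known. Alternatives were another pseudocount, no filter, other tools, scaling, thresholds, weights and covariates, and each mouse left out. Endothelial and smooth muscle covariates and the omission of 2 pairs of mice were added after seeing the data.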

Additional observations from a re-analysis of the deposited data

Results flagged for a closer look

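Among 20 collagen genes in 4 groups of 4 or 5 mice, 80 sets of values were examined for a mouse standing apart from its group (Dixon's ratio), and 4 held one, about the 1 in 20 that chance gives. Col3a1 was 68219.6 in the Ang II-treated IKKβ+/+ mouse X2350, against 95321 to 105308 in the other 4 mice, and this mouse also had the lowest fibroblast score of its group (−1.11 on the log2 scale). Col4a2 was 22317 in the saline-infused IKKβ-/- mouse X2409, against 14114 to 15468 in the other 3. Col4a6 was 4890.2 in the saline-infused IKKβ+/+ mouse X2373, against 3693 to 3883. Col8a1 was 1542 in the saline-infused IKKβ+/+ mouse X2370, against 1073 to 1167.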

How the results depend on the processing

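Counts of called collagen genes depended on the setting. With Ang II in IKKβ+/+ mice the count of 6 (8.66% of all genes called in either direction) became 11 with only the groups compared (12.8%), 14 with array weights (14%), 10 with edgeR (9.25%), 13 with DESeq2 (12.7%), 0 with the smooth muscle score as a covariate (0.701%), and 5 to 11 when each mouse was left out, the highest without X2356 and then 10 without X2380. In IKKβ-/- mice 2 (5.29%) became 0 with only the groups compared (1.99%), 1 with array weights (5.91%), 0 at an adjusted p under 0.05 (2.78%), 5, 0 and 6 with the fibroblast, adipocyte and smooth muscle scores (8.04%, 0.0404% and 6.98%), 0 without X2385 and X2406 (1.99%), and 0 to 3 when each mouse was left out (0 without X2384, 1 without X2380, X2385, X2401, X2403, X2406 or X2409). For the difference of responses 0 became 1 with DESeq2 (1.88%) and stayed 0 (0 to 0) without each mouse. Between genotypes with saline 5 (5.47%) became 2 without a filter (3.16%), 9 with only the groups compared (9.57%), 2 with edgeR (5.62%), 0 at an adjusted p under 0.05 (0.916%), 0, 0 and 9 with the fibroblast, adipocyte and smooth muscle scores (1.27%, 0.0404% and 11.3%), 0 without X2385 and X2406 (0.128%), 8 without X2350 and X2380 (8.91%), and 0 to 7 when each mouse was left out (the highest without X2380). With Ang II 1 (0.128%) became 0 with only the groups compared (0.00674%), 8 with DESeq2 (3.51%), 0 at an adjusted p under 0.05 (0%), 0, 2 and 0 with the adipocyte, endothelial and smooth muscle scores (0%, 0.216% and 0.00674%), 0 without either pair of mice (0.0404% and 0%), and 0 to 8 when each mouse was left out (8 without X2356, 5 without X2380, 4 without X2383). With each mouse left out, all genes called were 2.88% to 12.9% with Ang II in IKKβ+/+ mice (12.9% without X2356, 10.8% without X2380). In IKKβ-/- mice the share was 2.93% to 7.29% (3.36% without X2384), and for the difference of responses 0% to 0.532%. Between genotypes it was 0.162% to 11.6% with saline (7.57% without X2380). With Ang II it was 0% to 3.73% (3.73% without X2356, 1.92% without X2380, 0.781% without X2383). Settings that called more collagen genes mostly called more of all genes too. The cause was not tested. Of 2368 alternative values of named genes, 2186 kept their side of the threshold, 130 lost a call and 52 gained one. No called value changed sign. All 320 values of the chain ratios kept their side, but this does not show that the ratios were stable. With 4 or 5 mice a group, a lone ratio could not pass the adjustment even with its groups fully apart. Leaving out a mouse of a group not compared left the difference of a ratio unchanged. TMM scaling moved the median of all genes by under 0.01. The difference of responses was not run with only the groups compared, because it needs all 4. No paired analysis was possible because mice carry no shared numbers between groups. Groups of 4 and 5 mice limit what could be called, and several calls lie just under the threshold.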
